A study of Mus musculus with 6 samples.

Results

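Contacts between different chromosomes (trans contacts) were described over blocks of 10 Mb along the 19 autosomes of cultured mouse B-cell progenitors. A block collects the bins of about 100 kb that start in the same 10 Mb of a chromosome, counted from 10 Mb on, so that the stretch next to the centromere was left out. The 238 blocks held 22709 of the 24067 autosomal bins, out of 26731 bins in the whole series. They gave 26740 pairs of blocks on different chromosomes, which belong to 171 pairs of chromosomes. The raw read pairs between 2 blocks were summed in each library and divided by the number expected from the product of the trans totals of both blocks. This ratio is written observed over expected, with 1 for blocks that met as often as their totals predict, and differences between classes of blocks are given on the log2 scale.

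In situ Hi-C, which joins stretches of DNA that are neighbours in the nucleus and counts the joined pairs by sequencing, was done on 6 libraries of 3 genotypes, with 2 libraries each. The Erg KO carried Rag1CreT/+ and Erg fl/fl, the CreT control carried Rag1CreT/+ alone, and the Erg fl/fl control had Rag1Cre+/+ with Erg fl/fl and so no Cre. Erg encodes an ETS family transcription factor of early blood and B-cell development, and Cre made from the Rag1 locus removes the floxed Erg sequence in cells in which Rag1 has been expressed. The labels spell the background of all mice C56BL/6, and the methods name C57BL/6J. Replicate 1 of the Erg KO, both CreT control libraries and replicate 1 of the Erg fl/fl control came from females, and the other Erg KO and Erg fl/fl libraries from males. In every group, B220+ cells had been selected from lineage-negative bone marrow after 8 days of culture with the cytokines SCF, IL7 and FL, over a layer of OP9, a mouse stromal line. The libraries are biological duplicates per the methods, and the p-values measure the spread between these libraries. Bins of this size cannot show the deletion itself, and the cell type was not checked, since no RNA was measured in these files. The paper names the Erg-deficient cells of its Hi-C pre-proB cells and the wild-type ones proB cells, a later stage. Where the groups differed in stage, stage and genotype cannot be told apart here.

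Libraries held 29014581 to 68085468 read pairs, of which 5366490 to 16853423 joined blocks on different autosomes. The median count of a block pair was 554 and 595 in the Erg KO libraries, 423 and 506 in the CreT control and 299 and 174 in the Erg fl/fl control, so the last was measured with the largest counting error. Trans contacts made up 32.3% and 34.6% of the autosomal read pairs in the Erg KO, 24.7% and 26.8% in the CreT control and 24.3% and 21.6% in the Erg fl/fl control. Both Erg KO libraries thus had a higher trans share than all controls. A ratio of observed to expected does not contain that share, but reads joined at random between chromosomes would bring every ratio towards 1, and their part in the results was not tested.

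Chromosomes of an interphase nucleus occupy territories of their own and touch mainly at their borders. Where they touch, stretches of active, gene-rich chromatin (compartment A) tend to meet others of that kind, and gene-poor chromatin (compartment B), often at the nuclear lamina or around nucleoli, meets its own kind. Mouse autosomes have the centromere at the low-coordinate end, and centromeres of several chromosomes gather in shared foci. The low-coordinate and the high-coordinate ends can therefore lie in different neighbourhoods, and position along the chromosome, gene density and chromosome length are the features by which the blocks are ordered here.

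The pattern of trans contacts was largely shared by all libraries, but it was shallower in the Erg KO. Over the 24090 pairs of blocks that span at least 5 Mb, log2 observed over expected correlated between the Erg KO libraries with Pearson's r of 0.941. The value was 0.967 within the CreT control, 0.931 within the Erg fl/fl control and 0.880 to 0.948 between an Erg KO and a control library, as a description across block pairs, which are not independent. The spread of log2 observed over expected over 25856 block pairs, as an SD from which the counting variance was removed, was 0.28 and 0.26 in the Erg KO. It was 0.38 and 0.38 in the CreT control and 0.38 and 0.43 in the Erg fl/fl control. Each Erg KO library had a smaller spread than each of the 4 controls, by 0.117 on average (0.105 below the CreT control and 0.129 below the Erg fl/fl control). An exact permutation test over the 15 ways to split 6 libraries into 2 and 4, two-sided, gave p = 0.0667, which is the smallest value this design allows, so that no class below could pass 0.05. After all libraries were thinned to the depth of the shallowest, the difference was again -0.117.

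The groups differed at the ends of the chromosomes. Blocks nearest the centromere (from 10 to 20 Mb, 1 for each chromosome) met each other more often than expected. In 171 such pairs, summed log2 observed over expected was 0.43 and 0.43 in the Erg KO, 0.63 and 0.63 in the CreT control, and 0.64 and 0.72 in the Erg fl/fl control. Both Erg KO libraries were lower than every control library, with a mean observed over expected of 1.35 against 1.58 in the controls. The difference was -0.22 on the log2 scale against both controls together, -0.20 against the CreT control and -0.25 against the Erg fl/fl control, while between the controls the difference was -0.046 (CreT minus Erg fl/fl; exact permutation p = 0.0667 against both).

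Last blocks, at the telomere far from the centromere, also met each other. Their log2 values were 0.40 and 0.40 in the Erg KO, 0.57 and 0.54 in the CreT control and 0.59 and 0.74 in the Erg fl/fl control. First and last blocks avoided each other, and over 342 pairs the values were -0.41 and -0.40 in the Erg KO, -0.63 and -0.63 in the CreT control, and -0.64 and -0.81 in the Erg fl/fl control. No overlap was seen in either class, with the Erg KO nearer to 0 in both (exact permutation p = 0.0667 each). Blocks between the ends, in 18856 of the 26740 pairs, stood within 0.01 of 0 in all libraries. Expected counts were scaled to the sum of the observed ones, which holds the sum over most pairs near 0. That value therefore cannot show whether the groups differed among inner blocks.

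Single block pairs were tested with the quasi-likelihood test of edgeR on counts, with the expected counts as offset and with group and sex in the model. The Erg KO was compared with the mean of both controls. Of all 26740 block pairs, 3660 were higher and 2742 lower at an adjusted p under 0.05, or 13.7% and 10.3%. Against that background, 146 of 171 pairs of first blocks were lower and 0 were higher (edgeR), and 45 of 171 pairs of last blocks were lower and 0 higher. The 12 blocks under 5 Mb, down to 0.13 Mb, were all last blocks. Low counts of their pairs limit how many could be called. Of the 342 pairs of a first with a last block, 164 were higher and 0 lower. Among the 18856 pairs of inner blocks, 2197 were higher and 1698 lower. DESeq2, run in place of edgeR, called 247 block pairs in all, and edgeR called 2753 without replicate 1 of the Erg KO, 3339 without its replicate 2 and 3344 without replicate 2 of the Erg fl/fl control.

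Contact fell steadily with the difference in position. Blocks whose distance from the chromosome start differed by under 20 Mb (4918 pairs) had log2 values of 0.13 and 0.12 in the Erg KO against 0.19 to 0.24 in the 4 controls. At 160 to 180 Mb apart (108 pairs), the values were -0.47 and -0.44 in the Erg KO, -0.73 and -0.73 in the CreT control and -0.71 and -0.93 in the Erg fl/fl control. In all libraries the sign changed between the classes of 40 to 60 and 60 to 80 Mb, and in each of the 9 distance classes both Erg KO libraries were nearer to 0 than all controls. Replicate 2 of the Erg fl/fl control, the shallowest library and the one with the lowest trans share, stood farthest from 0 in every class.

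**Figure D1:**
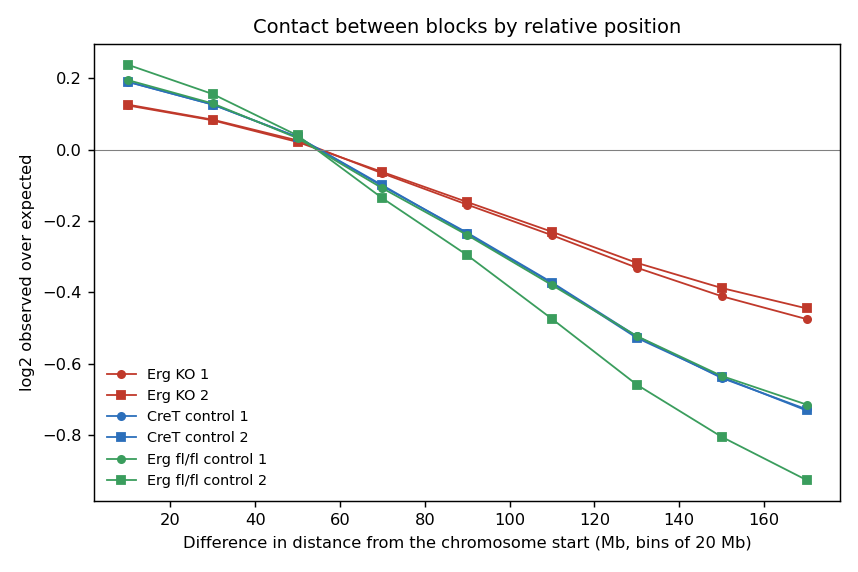
Summed log2 observed over expected (y axis) of block pairs on different autosomes against the difference of both blocks' distance from the chromosome start (x axis, Mb, classes of 20 Mb), with 1 line for each library. Both Erg KO lines run from 0.13 and 0.12 to -0.47 and -0.44, and the 4 control lines are steeper, down to -0.93 for replicate 2 of the Erg fl/fl control.

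The distal parts of the long chromosomes held a strong preference. Blocks at or beyond 150 Mb, found on chromosomes 1 to 5, met each other (50 pairs) with log2 values of 0.77 and 0.72 in the Erg KO, 1.01 and 1.01 in the CreT control, and 1.01 and 1.21 in the Erg fl/fl control. That is a mean observed over expected of 1.68 in the Erg KO and 2.09 in the controls. With blocks from 10 to 50 Mb of other chromosomes, the same distal blocks had a mean of 0.781 in the Erg KO and 0.657 in the controls. Last blocks of chromosomes 16 to 19 (of at least 5 Mb) did not stand out in this way. Their log2 values among themselves were 0.04 and 0.04 in the Erg KO and 0.06 to 0.13 in the controls, whereas those of chromosomes 1 to 4 were 1.05 and 0.98 in the Erg KO and 1.38 to 1.70 in the controls. These chromosome groups were chosen after the values were seen and were not tested as such.

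Gene density set a second order. Blocks were divided by protein-coding gene starts per Mb into 79 gene-poor, 79 intermediate and 80 gene-rich blocks, with medians of 3.13, 7.07 and 14.8 starts per Mb and a GC content of 39.6%, 41.9% and 44.4%. Gene-poor blocks met each other more than expected (2909 pairs), with log2 values of 0.19 and 0.17 in the Erg KO, 0.25 and 0.26 in the CreT control, and 0.25 and 0.26 in the Erg fl/fl control. Gene-rich blocks met each other (2987 pairs) with values of 0.15 and 0.14 in the Erg KO, 0.18 and 0.18 in the CreT control, and 0.18 and 0.16 in the Erg fl/fl control. Gene-rich with gene-poor blocks (6018 pairs) had -0.18 and -0.17 in the Erg KO, -0.23 and -0.24 in the CreT control, and -0.23 and -0.22 in the Erg fl/fl control. In all 3 classes the Erg KO libraries were nearer to 0 than every control, by 0.074 for gene-poor pairs, 0.026 for gene-rich pairs and 0.056 for mixed pairs. The exact permutation p was 0.0667 for each.

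Of the gene-rich pairs, 382 were higher (12.8%) and 316 lower (10.6%) by edgeR, shares near the 13.7% and 10.3% of all block pairs. Gene-poor pairs were called lower in 588 cases (20.2%) and higher in 103 (3.54%), and mixed pairs higher in 1227 (20.4%) and lower in 329 (5.47%). The controls differed from each other by 0.0105 or less in all 3 classes.

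Gene density was also compared within classes of position. Among blocks under 20 Mb apart in position, gene-poor pairs had log2 values of 0.34 and 0.33 in the Erg KO and 0.49 to 0.54 in the controls. Gene-rich pairs at that distance had 0.25 and 0.24 in the Erg KO and 0.33 to 0.36 in the controls. At least 60 Mb apart, mixed pairs had -0.34 and -0.32 in the Erg KO and -0.48 to -0.55 in the controls. Mixed pairs that were close in position had values of -0.04 and -0.02 in the Erg KO and between -0.01 and 0.05 in the controls, and pairs of gene-poor blocks that were far apart had 0.00 and -0.02 in the Erg KO against -0.05 to -0.11. Gene-rich pairs that far apart had 0.03 and 0.03 in the Erg KO, above the -0.01, 0.00, -0.02 and -0.09 of the controls, so that here the Erg KO was farther from 0 than 3 of the 4 controls.

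**Figure D2:**
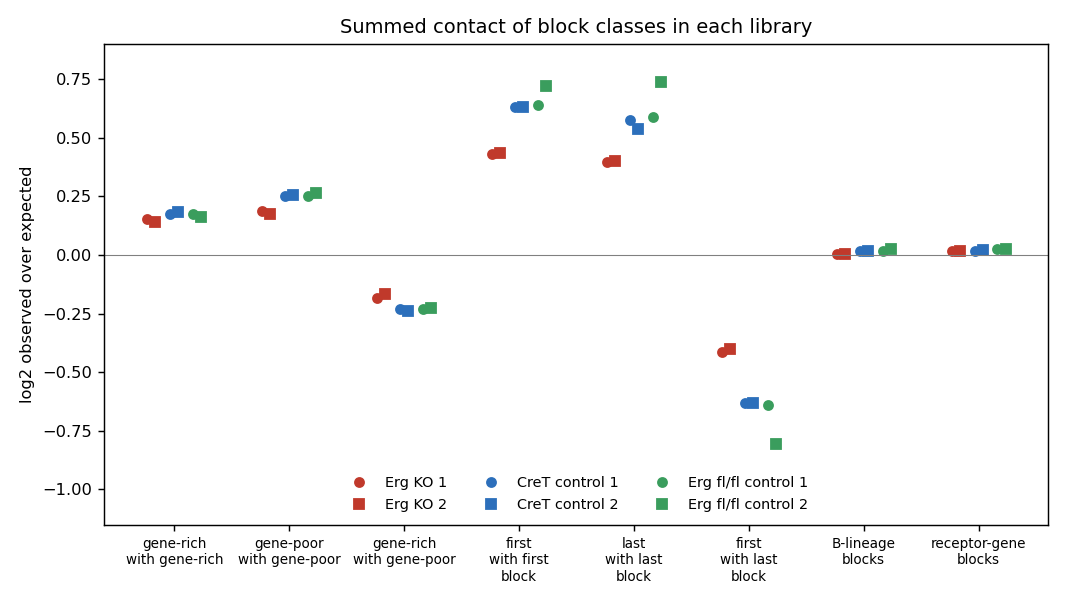
Summed log2 observed over expected (y axis) of classes of block pairs (x axis) in each of the 6 libraries, with 1 point for each library, circles for replicate 1 and squares for replicate 2. The red Erg KO points lie nearer to 0 than all control points in the classes of gene density and position, from 0.43 against 0.63 to 0.72 for first blocks to -0.41 and -0.40 against -0.63 to -0.81 for first with last blocks.

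Each block was then described by its preference, the log2 observed over expected with gene-rich blocks minus that with gene-poor blocks, for the 226 blocks of at least 5 Mb. All 75 gene-poor blocks preferred gene-poor partners in the mean of the controls. Of 77 intermediate blocks, 32 preferred gene-rich partners, and of 74 gene-rich blocks 61 did. The strongest preference for gene-rich partners was that of chr4:130000076-140000052, with 18.3 gene starts per Mb and 48.8% GC. Its values were 1.08 and 0.98 in the Erg KO and 1.32 to 1.35 in the controls. The strongest preference for gene-poor partners was that of chr5:10100172-20000102, with 3.94 gene starts per Mb and 37.9% GC, with -0.61 and -0.59 in the Erg KO and -0.84 to -0.93 in the controls. Across blocks the preference correlated with gene starts per Mb (Pearson's r = 0.714, Spearman's rho = 0.805) and with GC content (r = 0.875, rho = 0.879), as a description over 226 blocks that share libraries and neighbours. The preference was nearer to 0 in both Erg KO libraries than in all controls for 164 of the 226 blocks, and farther from 0 for 2.

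Gene density parted from preference at the odorant and vomeronasal receptor clusters, long arrays of chemosensory genes that are silent outside sensory neurons. Of the gene-rich blocks, 28 held at least 10 starts of such genes (symbols with Olfr or Vmn), and 10 of these preferred gene-poor partners. Of the 46 gene-rich blocks with fewer, 3 did. The block from 80 Mb of chromosome 2, with 277 receptor genes, had a preference of -0.42 and -0.37 in the Erg KO and -0.54 to -0.55 in the controls. The block from 30 Mb of chromosome 9 holds 115 receptor genes beside Ets1 and Fli1, which encode ETS factors related to Erg, and its values were -0.38 and -0.36 in the Erg KO and -0.55 to -0.61 in the controls. The block from 10 Mb of chromosome 19, with 91 receptor genes, had -0.35 and -0.25 against -0.33 to -0.50, so that there the groups overlapped. A receptor cluster did not always go with gene-poor partners: the block from 100 Mb of chromosome 7, with 236 receptor genes, had 0.16 and 0.16 in the Erg KO and 0.17 to 0.22 in the controls.

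The receptor-gene blocks met each other about as often as their totals predict. Over 588 pairs of 36 blocks, log2 values were 0.02 and 0.02 in the Erg KO and 0.02 to 0.03 in the controls, and 73 pairs were higher (12.4%) and 60 lower (10.2%) in the Erg KO (edgeR), near the shares of all block pairs. With a minimum of 30 receptor genes (177 pairs), the values were 0.05 and 0.05 in the Erg KO and 0.08 to 0.10 in the controls.

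Blocks with genes of the B lineage were set beside these. A list of 31 transcription factors, surface and recombination genes and antigen receptor loci, 30 of which lay in a block, marked 25 blocks. Their 280 pairs had log2 values of 0.01 and 0.00 in the Erg KO, 0.02 and 0.02 in the CreT control, and 0.02 and 0.03 in the Erg fl/fl control, which did not overlap but differed by only 0.016 (exact permutation p = 0.0667). In the Erg KO, 43 of these pairs were higher (15.4%, beside 13.7% of all block pairs) and 38 lower (13.6%, beside 10.3%), and the median log2 fold change was 0.0018, beside 0.0078 over all block pairs. Against the CreT control 32 were higher (11.4%, beside 8.15% of all block pairs) and 22 lower (7.86%, beside 6.27%). Against the Erg fl/fl control 30 were higher (10.7%, beside 10.4%) and 28 lower (10%, beside 7.59%), and between the controls 0 were called either way (edgeR), as comparisons that share libraries.

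Ikzf1, the gene of the zinc-finger factor Ikaros, lies in the gene-poor block from 10 Mb of chromosome 11. It gave some of the highest and some of the lowest ratios of the list. With the block of Myb, a factor of progenitor cells (from 20 Mb of chromosome 10), observed over expected was 1.42 and 1.45 in the Erg KO, 1.75 and 1.67 in the CreT control, and 1.65 and 1.89 in the Erg fl/fl control. Both Erg KO libraries were lower than every control, by 0.29 on the log2 scale (SE 0.054, edgeR adjusted p = 2.3e-05). With the block of Ets1 and Fli1, the ratio was 1.41 and 1.36 in the Erg KO and 1.62 to 1.74 in the controls.

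With the block that holds Erg itself and Runx1, a partner of many ETS factors (from 90 Mb of chromosome 16), the ratio of the Ikzf1 block was 0.589 and 0.649 in the Erg KO. It was 0.463 and 0.535 in the CreT control and 0.536 and 0.465 in the Erg fl/fl control. Both Erg KO libraries were higher than all controls (log2 fold change 0.28, SE 0.079, edgeR adjusted p = 0.0055). With the block of Igh, the heavy chain locus (from 110 Mb of chromosome 12), the ratio was 0.669 and 0.726 in the Erg KO and 0.520 to 0.653 in the controls. These 4 contacts of the Ikzf1 block were picked from the highest and lowest ratios of the list in the controls. Those above 1 in the controls were lower and those below 1 higher in the Erg KO, a direction that this choice favours, so it is no separate support.

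Other pairs of the list were named for a high ratio in the controls or for a large change, so their direction is no separate support. The blocks of Rag1 and Rag2, which encode the recombinase (from 100 Mb of chromosome 2), and of Lef1, a factor of early lymphocytes (from 130 Mb of chromosome 3), had a ratio of 1.30 and 1.33 in the Erg KO and 1.53 to 1.59 in the controls. For Myb with Ebf1, a factor that specifies the B lineage (from 40 Mb of chromosome 11), the ratio was 1.17 and 1.21 in the Erg KO and 1.28 to 1.70 in the controls. The largest increase of the list was that of Lef1 with the block of Ets1 and Fli1, with 0.911 and 0.850 in the Erg KO and 0.583 to 0.736 in the controls (log2 fold change 0.38, SE 0.080, edgeR adjusted p = 0.00013). With the log2 values of each library scaled to the same spread, as given below, limma adjusted p was 0.998 for the Ikzf1 with the Erg block. For Ikzf1 it was 0.47 with Myb, 0.39 with Ets1 and Fli1 and 0.82 with Igh. For Rag1 and Rag2 with Lef1 it was 0.42, and for Myb with Ebf1 0.11. Lef1 with Ets1 and Fli1 had 0.044. Among other large decreases of the list, the block of Cd79a (from 20 Mb of chromosome 7) with that of Bcl11a (from 20 Mb of chromosome 11) had 0.034. Its log2 fold change without scaling was -0.34 (edgeR). For Ebf1 with Irf4 the limma adjusted p was 0.037, with a log2 fold change of -0.31 without scaling (edgeR). A block holds many genes, and none of these contacts can be placed at a single gene.

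The Erg block, with 9.63 gene starts per Mb, met gene-rich blocks with log2 values of 0.13 and 0.12 in the Erg KO and 0.15 to 0.16 in the controls, and gene-poor blocks with -0.28 and -0.27 against -0.37 to -0.39. The block of Pax5, which holds cells in the B lineage, had -0.19 and -0.15 with gene-poor blocks in the Erg KO and -0.21 to -0.23 in the controls. The Ebf1 block, in contrast, met gene-poor blocks more, at 0.18 and 0.18 in the Erg KO and 0.23 to 0.26 in the controls. Values with gene-rich blocks were nearer to 0 in both Erg KO libraries than in all controls for 17 of the 25 listed blocks. In 8 the groups overlapped. For the preference given above, which is a different measure, the same held for 164 of all 226 blocks. No count over all blocks is given for values with gene-rich or with gene-poor blocks alone. The counts of listed blocks therefore cannot be read as a trait of the list. With gene-poor blocks, 19 of the 25 listed blocks were nearer to 0 in this way, and in 6 the groups overlapped. Among the latter, the block of Irf4, a factor of B-cell maturation (from 30 Mb of chromosome 13), had -0.10 and -0.04 in the Erg KO and -0.06 to 0.00 in the controls.

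Against each control by itself, 2180 block pairs were higher (8.15%) and 1677 lower (6.27%) than in the CreT control, and 2774 were higher (10.4%) and 2029 lower (7.59%) than in the Erg fl/fl control (edgeR). These comparisons share the Erg KO libraries. Between the controls, 6 pairs were higher (0.0224%) and 41 lower (0.153%) in the CreT control. Of the 3660 pairs higher in the Erg KO than in the mean of both controls, 3514 had a mean below 1 in the controls. Of the 2742 lower pairs, 2700 had a mean above 1. Since the same control libraries define both numbers, block pairs of at least 5 Mb were also sorted into 5 equal classes by the CreT control and compared with the Erg fl/fl control. In the lowest class of 4818 pairs, the mean observed over expected was 0.678 in the CreT control, 0.664 in the Erg fl/fl control and 0.772 in the Erg KO, with 1919 pairs higher and 2 lower than in the Erg fl/fl control. In the highest class it was 1.38, 1.39 and 1.26, with 50 pairs higher and 1450 lower.

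When the log2 values of each library were scaled to the same spread, 377 pairs were higher and 186 lower in the Erg KO (limma adjusted p under 0.05), out of 25856. That scaling was chosen after the data were seen. Of these 563 pairs, 376 had also been called with the same sign without the scaling.

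The highest single ratios were those of distal blocks of long chromosomes. Apart from blocks under 5 Mb, which gave 7 of the 10 highest pairs and all of the 5 lowest on few counts, the highest pair but one was chr1:190100024-195471971 with chr2:170000700-180000163. Its observed over expected was 2.62 and 2.54 in the Erg KO, 3.59 and 3.72 in the CreT control, and 3.54 and 4.64 in the Erg fl/fl control. Erg KO libraries were lower than all controls, by 0.61 on the log2 scale (SE 0.059, edgeR adjusted p = 3.7e-15). The same block of chromosome 2 with the block from 150 Mb of chromosome 3 had 2.38 and 2.36 in the Erg KO and 3.20 to 4.03 in the controls, and with the block from 180 Mb of chromosome 1 it had 2.04 and 1.98 against 2.61 to 3.66. All 11 pairs that followed the highest pair among blocks of at least 5 Mb joined blocks from 140 Mb on, on chromosomes 1 to 4. Each was lower in both Erg KO libraries than in every control. Since the pairs were ranked by the mean of the same controls, that choice favours lower values in the Erg KO. Blocks under 5 Mb also took part in 8 of the 10 largest increases and 8 of the 10 largest decreases.

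The highest pair, from 90 Mb of chromosome 2 with 100 Mb of chromosome 6, was of another kind. Its ratio was 8.21 and 7.78 in the Erg KO and 7.32 to 7.91 in the controls, but 85.9% of its counts came from a single pair of bins, chr2:98599912-98700076 with chr6:103599835-103699631, and without that pair the mean of the controls was 1.23. Single bins also carried 58.0% of the counts between the blocks from 100 Mb of chromosome 6 and 20 Mb of chromosome 9, and 53.4% of those between 180 Mb of chromosome 2 and 30 Mb of chromosome 17. The last of these bins, chr17:39800075-39899874, holds an annotated ribosomal RNA gene.

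The lowest pairs of blocks of at least 5 Mb joined the gene-rich block from 130 Mb of chromosome 4 with gene-poor blocks near the centromere of other chromosomes. With chr5:10100172-20000102 the ratio was 0.507 and 0.501 in the Erg KO, 0.366 and 0.331 in the CreT control, and 0.384 and 0.301 in the Erg fl/fl control. Erg KO libraries were higher than all controls (log2 fold change 0.56, SE 0.095, edgeR adjusted p = 3.6e-06). With the Ikzf1 block the ratio was 0.474 and 0.508 in the Erg KO and 0.339 to 0.402 in the controls, and with the block from 20 Mb of chromosome 15 it was 0.527 and 0.560 against 0.338 to 0.389. These pairs, too, were ranked by the mean of the same controls, which favours higher values in the Erg KO.

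Summed over whole chromosomes, the ratios were narrow. In the mean of the controls, 132 of 171 chromosome pairs lay within 5% of 1, and the full range was 0.804 to 1.26. Of the 10 highest pairs, most joined small with small or large with large chromosomes. Chromosome 15 with 19 had a mean of 1.26 (SD 0.020, n = 4), 18 with 19 had 1.19 (SD 0.016), 16 with 19 had 1.18 (SD 0.062) and 11 with 19 had 1.12 (SD 0.0095). Chromosome 1 with 2 had 1.16 (SD 0.0019) and 1 with 3 had 1.10 (SD 0.0072). Chromosomes 11 with 15, 9 with 11, 2 with 4 and 5 with 11 completed the 10 highest, between 1.08 and 1.10. At the low end, chromosome 19 with chromosome 2 had 0.804 (SD 0.0073), with chromosome 1 it had 0.822 (SD 0.0031) and with chromosome 3 it had 0.853 (SD 0.0085). Chromosomes 2 with 18, 7 with 19, 4 with 19, 1 with 15, 1 with 18, 3 with 11 and 10 with 19 followed, between 0.885 and 0.925.

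The Erg KO kept this order. Its 10 highest pairs shared 9 with those of the controls and its 10 lowest shared 8, and its ratios correlated with theirs with r of 0.937 over the 171 pairs. Expected counts that were balanced to the trans totals of every block, in place of the plain product, kept 8 of the 10 highest and 8 of the 10 lowest.

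In mice, some autosomes carry arrays of ribosomal RNA genes, which gather at nucleoli. Chromosomes 12, 15, 16, 18 and 19, chosen after the values were seen, met among themselves with summed log2 values of 0.12 and 0.09 in the Erg KO and 0.09 to 0.11 in the controls. Without the pair of 16 with 19, the values were 0.06 and 0.06 in the Erg KO and 0.08 to 0.09 in the controls.

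**Figure D3:**
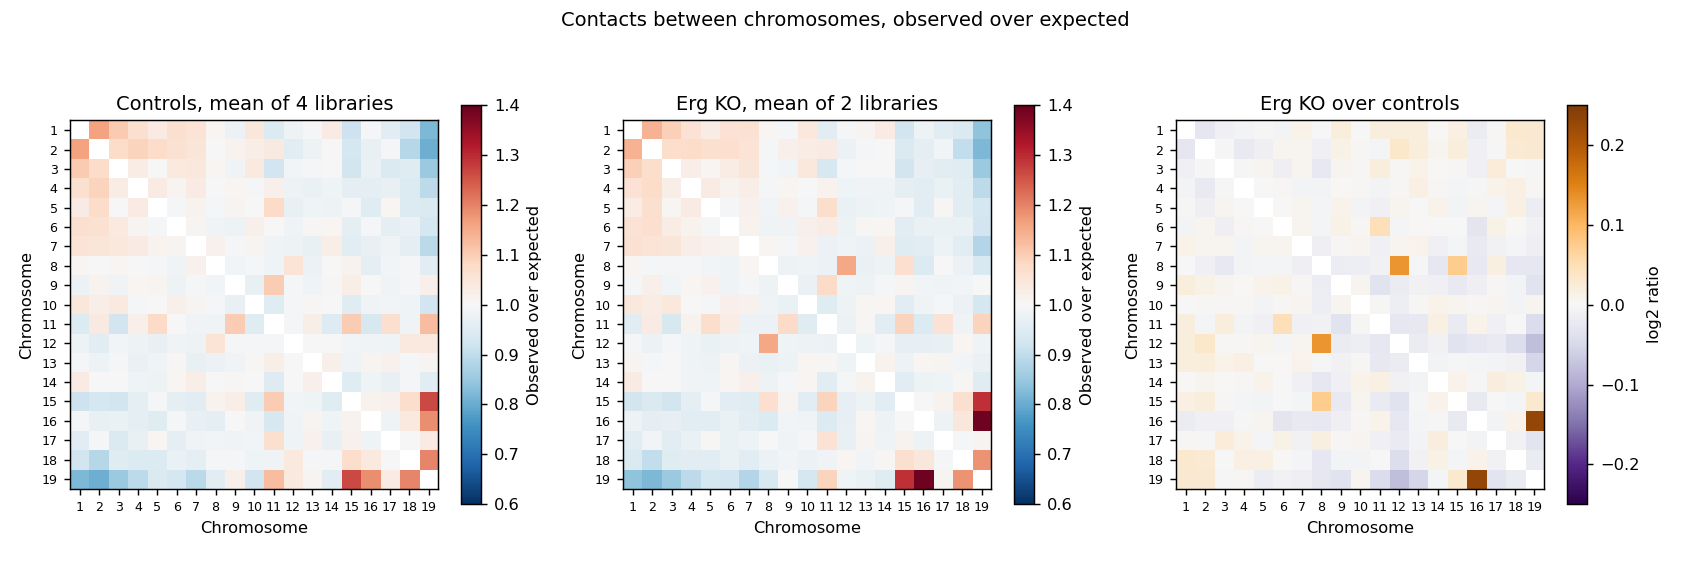
Observed over expected contact of each pair of autosomes, as the mean of the 4 control libraries (left), the mean of the 2 Erg KO libraries (middle) and the log2 ratio of both (right); both axes are chromosome numbers. Both groups show high values among chromosomes 15, 16, 18 and 19 and low values of chromosome 19 with 1, 2 and 3, and the ratio is largest for 16 with 19.

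Differences of chromosome pairs between the groups were small, with a median size of 0.026 on the log2 scale among the called pairs. In the Erg KO, 16 pairs were higher (9.36%) and 27 lower (15.8%) than in the mean of both controls (edgeR adjusted p under 0.05). Against the CreT control, 12 were higher (7.02%) and 29 lower (17.0%), and against the Erg fl/fl control 12 were higher (7.02%) and 13 lower (7.60%). Between the controls, 3 were higher (1.75%) and 2 lower (1.17%) in the CreT control. Of the 43 called pairs, 32 did not overlap between the Erg KO and the control libraries. Among all 171 pairs, 22 were higher and 25 lower in the Erg KO without overlap. Without sex in the model, 20 of the called pairs were called with the same sign. Without replicate 1 of the Erg KO 20 pairs were called, without replicate 1 of the CreT control 11, and without its replicate 2 19. Against the CreT control alone, 8 pairs were called without sex, 14 without replicate 1 of the Erg KO, 0 without replicate 1 of the CreT control and 6 without its replicate 2 (edgeR). Against the Erg fl/fl control alone, 4 were called without sex and 0 without either CreT control library. Where 0 were called, 42 pairs against the CreT control and 47 against the Erg fl/fl control had an unadjusted p under 0.05.

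The decreases were led by small chromosomes. Chromosome 12 with 19 had ratios of 0.965 and 1.00 in the Erg KO, 1.04 and 1.03 in the CreT control, and 1.03 and 1.05 in the Erg fl/fl control. No overlap was seen between the groups, and the Erg KO was lower by 0.091 on the log2 scale (SE 0.012, edgeR adjusted p = 0.0001). Chromosome 13 with 19 had 0.970 and 0.979 in the Erg KO and 0.999 to 1.02 in the controls, and chromosome 11 with 19 had 1.09 and 1.09 against 1.11 to 1.13. Chromosomes 12 with 18, 12 with 15, 6 with 16 and 9 with 11 also fell, by 0.034 to 0.048, without overlap. Chromosomes 9 with 19, 8 with 19 and 12 with 16 fell by 0.033 to 0.042, but in these the Erg KO and the control libraries overlapped. Expected counts come from the trans totals, so an excess in a chromosome pair, as in 16 with 19 below, lowers other ratios of both chromosomes. Its part in these decreases was not tested.

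Increases reached pairs of a large with a small chromosome. Chromosome 1 with 18 had 0.942 and 0.944 in the Erg KO and 0.912 to 0.930 in the controls, chromosome 2 with 12 had 0.978 and 0.979 against 0.951 to 0.961, and chromosome 2 with 18 had 0.898 and 0.906 against 0.882 to 0.889. Chromosomes 6 with 11, 2 with 13, 1 with 12 and 1 with 9 rose by 0.022 to 0.057 without overlap, and of these 6 with 11 and 1 with 12 had an adjusted p of 0.19 and 0.074 without sex in the model. Chromosome 15 with 19 rose by 0.044 and 8 with 17 by 0.023 (edgeR), but with overlapping libraries, and their adjusted p was 0.47 and 0.34 without sex in the model.

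The largest difference, that of chromosome 16 with 19, did not follow the groups cleanly. Its ratio was 1.51 in replicate 1 and 1.26 in replicate 2 of the Erg KO, 1.15 and 1.17 in the CreT control, and 1.28 and 1.14 in the Erg fl/fl control. Replicate 1 of the Erg fl/fl control was higher than replicate 2 of the Erg KO. With sex in the model the log2 fold change was 0.28 (SE 0.027, edgeR adjusted p = 0.0089), and without it the adjusted p was 0.31. Chromosomes 8 with 12 and 8 with 15 had the same order of libraries, with 1.23 and 1.08 in the Erg KO, 1.02 and 1.05 in the CreT control and 1.11 and 1.03 in the Erg fl/fl control for 8 with 12. They did not pass the threshold (edgeR adjusted p = 0.054 and 0.077).

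These differences lay in a corner of each map, chosen after the values were seen and not tested as such. Over the blocks from 10 to 70 Mb of chromosome 16 and from 20 to 60 Mb of chromosome 19 (35 pairs), the log2 values were 0.84 and 0.51 in the Erg KO, 0.32 and 0.38 in the CreT control, and 0.54 and 0.34 in the Erg fl/fl control. With the last blocks of chromosome 16, from 80 and 90 Mb, the same blocks of chromosome 19 had -0.14 and -0.13 in the Erg KO and -0.16 to -0.26 in the controls. The step fell at the border of the blocks from 70 and 80 Mb. Just inside it, chr16:70099233-80099587 with chr19:20000676-30000321 had ratios of 2.99 and 1.90 in the Erg KO, 1.29 and 1.43 in the CreT control, and 2.03 and 1.63 in the Erg fl/fl control, where the groups overlapped. With chr19:30000318-40100245 the ratios were 2.46 and 1.69 in the Erg KO and 1.14 to 1.54 in the controls (log2 fold change 0.83, SE 0.048, edgeR adjusted p = 4.0e-29). That test had sex in the model, and the Erg KO libraries, from a female and a male, differed widely. Without sex, chromosome 16 with 19 as a whole did not pass the threshold, and no value without sex is given for the block pair. A single bin pair made up 0.17% or less of the counts of these block pairs.

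On chromosome 8, the blocks from 70 to 110 Mb had log2 values with the blocks from 80 to 110 Mb of chromosome 12 of 0.88 and 0.42 in the Erg KO, 0.18 and 0.29 in the CreT control, and 0.50 and 0.21 in the Erg fl/fl control. With the blocks from 80 and 90 Mb of chromosome 15 they had 0.77 and 0.34 in the Erg KO, 0.14 and 0.22 in the CreT control, and 0.44 and 0.23 in the Erg fl/fl control. Corresponding blocks of chromosomes 12 and 15 met each other at -0.03 and -0.03 in the Erg KO and -0.02 to 0.10 in the controls, so the excess was with chromosome 8. In each of the 3 corners replicate 1 of the Erg KO was highest by far. Replicate 1 of the Erg fl/fl control came before replicate 2 of the Erg KO in all 3, and the remaining control libraries were lowest. The source of these corners was not tested.

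**Figure D4:**
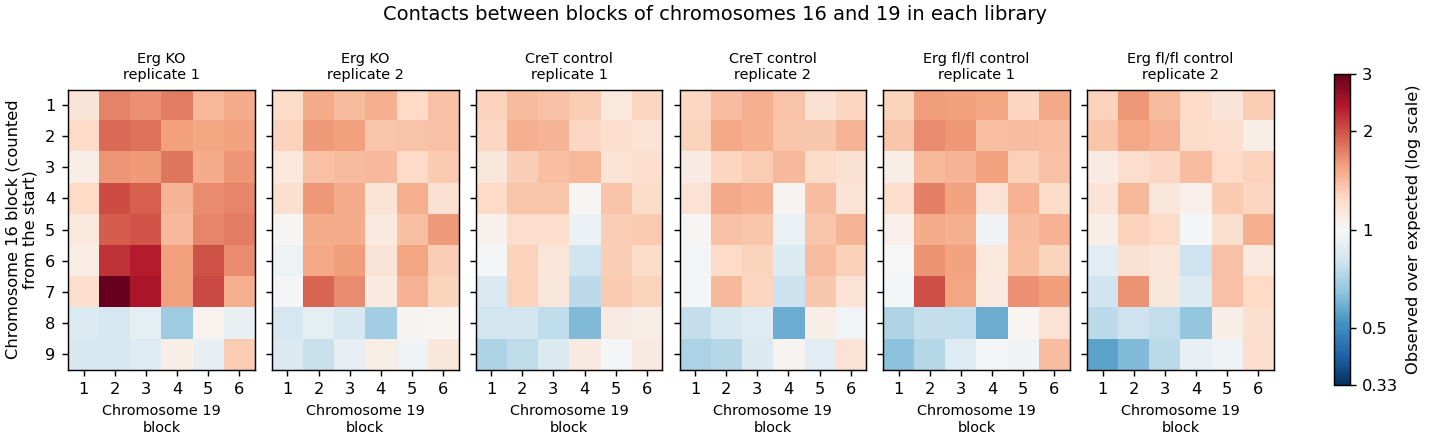
Observed over expected contact (colour, log scale) between the 9 blocks of chromosome 16 (y axis, numbered from the start) and the 6 blocks of chromosome 19 (x axis) in each of the 6 libraries. Blocks 1 to 7 of chromosome 16 with blocks 2 to 6 of chromosome 19 have summed log2 values of 0.84 and 0.51 in the Erg KO and 0.32 to 0.54 in the controls, and blocks 8 and 9 of chromosome 16 do not share the excess.

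The trans totals, by which the ratios are divided, differed as well. In the Erg KO a larger part of all trans contacts fell on gene-poor blocks. These took 28.7% and 28.1% of the contacts in the Erg KO, 26.6% and 26.7% in the CreT control, and 26.9% and 26.0% in the Erg fl/fl control, and gene-rich blocks took 37.5% and 38.2% in the Erg KO and 39.4% to 40.5% in the controls. The groups did not overlap in either class (exact permutation p = 0.0667), and intermediate blocks took 33.4% to 33.8% in all libraries.

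Of the 238 block totals, 85 were higher (35.7%) and 88 lower (37.0%) in the Erg KO than in the mean of both controls (edgeR with TMM scaling). With libraries scaled to their sum instead, 106 were higher and 73 lower. Against the CreT control 78 were higher (32.8%) and 80 lower (33.6%), and against the Erg fl/fl control 85 were higher (35.7%) and 87 lower (36.6%). Between the controls edgeR called none, with 42 at an unadjusted p under 0.05, and DESeq2 called 18. Of the gene-poor blocks 55 were higher and 4 lower, of the intermediate blocks 25 were higher and 26 lower, and of the gene-rich blocks 5 were higher and 58 lower.

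The largest increases were all of gene-poor blocks. The block from 110 Mb of chromosome 1, with 2.38 gene starts per Mb, had a trans total per Mb, relative to the mean of its library, of 0.637 and 0.639 in the Erg KO, 0.538 and 0.553 in the CreT control, and 0.564 and 0.521 in the Erg fl/fl control. Both Erg KO libraries were higher than all controls (log2 fold change 0.25, SE 0.026, edgeR adjusted p = 8.8e-05). The blocks from 60 Mb of chromosome 16, 80 Mb of chromosome 14, 140 Mb of chromosome 1 and 10 Mb of chromosome 5 rose by 0.22 to 0.25.

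The largest decreases were all of gene-rich blocks, 4 of them the last of their chromosome. The block from 120 Mb of chromosome 8, with 11.5 gene starts per Mb, had 1.39 and 1.48 in the Erg KO, 1.75 and 1.74 in the CreT control, and 1.70 and 1.85 in the Erg fl/fl control. Erg KO libraries were lower than all controls by 0.31 on the log2 scale (SE 0.018, edgeR adjusted p = 1.5e-05). The blocks from 130 and 150 Mb of chromosome 4, 120 Mb of chromosome 11 and 120 Mb of chromosome 13 fell by 0.28 to 0.32.

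**Figure D5:**
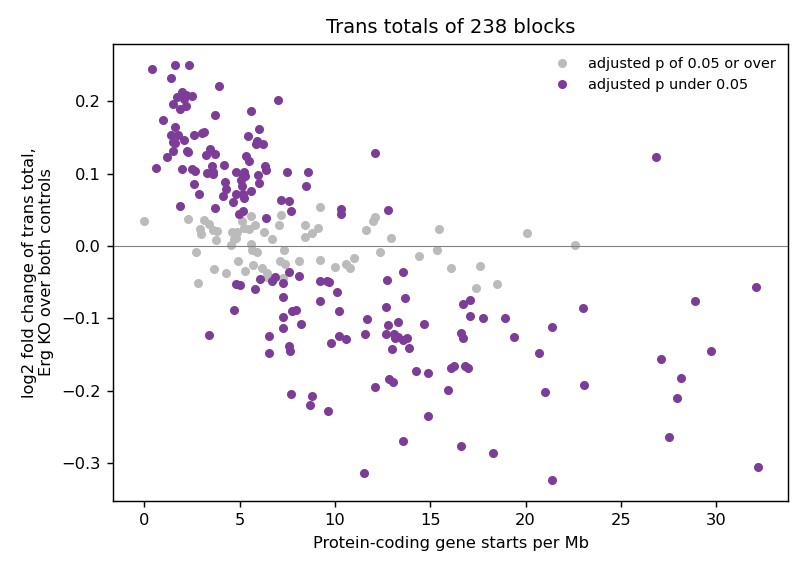
Log2 fold change of the trans total of each of the 238 blocks between the Erg KO and both controls (y axis, edgeR) against protein-coding gene starts per Mb (x axis), with blocks past an adjusted p of 0.05 in purple. Most gene-poor blocks lie above 0 and most gene-rich blocks below, with the lowest at -0.32.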

How the data were processed

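In situ Hi-C libraries had been sequenced. Per the methods, the authors aligned reads to mm10 with diffHic, removed artefact pairs and counted read pairs in bins of whole restriction fragments. The deposited values are raw counts, and bin coordinates are deposited beside them. Of the columns of values, 0 lay outside the 6 samples. Blocks, gene starts (GENCODE M21) and GC content were placed on the mm10 assembly. The members and gene lists were chosen with earlier results of these data known.

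Counts of block pairs, of chromosome pairs and of block totals were tested with edgeR 4.0.16 (quasi-likelihood, robust) in R 4.3.3 over all 6 libraries with group and sex, with expected counts as offset for pairs and TMM for totals. The Benjamini-Hochberg adjustment took in each whole table, with 0.05 as the threshold. The dispersion was held at 0.000101 or more, since smaller values are handled inaccurately by edgeR at large counts. Summed classes were compared by exact permutation. Replicate numbers were taken as names of samples, and the deviations of same-numbered libraries correlated at -0.020, 0.038 and -0.030. Such a correlation cannot exclude a link limited to few regions. In the corners, the libraries numbered 1 of the Erg KO and of the Erg fl/fl control were the highest, and same-numbered libraries of these groups share their sex. On simulated data for the comparison with both controls, 25537 block pairs tested, all 100 pairs changed 1.5-fold and all 100 changed 2-fold were recovered, with 9 false calls. Unchanged pairs were drawn around the same ratio in all libraries, without the smaller spread of the Erg KO. The false calls therefore do not measure those in the real data, and changes under 1.5-fold were not simulated. Intervals of depth cover counting error only. Alternatives with DESeq2 1.42.0 and limma 3.58.1, other filters, depths and models, and each library left out are given under the processing.

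Named items were the 10 highest and 10 lowest chromosome pairs and the 10 highest and 5 lowest block pairs in the controls, and the 10 largest changes in each direction (5 for block totals) with the same sign against each control. Block pairs of at least 5 Mb and the corners were added after the values were seen.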

Additional observations from a re-analysis of the deposited data

How the results depend on the processing

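All classes of gene density, position, B-lineage and receptor-gene blocks, and the contrast, kept their direction under every alternative run. Quartiles in place of terciles of gene density gave 0.080 for mixed and -0.100 for gene-poor pairs, and at least 30 receptor genes gave -0.037. Counts of called block pairs, in the order Erg KO against both, against the CreT and against the Erg fl/fl control, and CreT against Erg fl/fl control, were 2755, 878, 2290 and 26 at equal depth, 247, 58, 143 and 2 with DESeq2, and 563, 174, 453 and 8 with equal spread (limma). Between the controls they were 2 without sex and 0 with a replicate block in place of sex, against 1929 and 1832 at an unadjusted p under 0.05. Called chromosome pairs in that order were 20, 8, 4 and 0 without sex and 18, 14, 4 and 0 with the replicate block; between the controls they were 2 without the top bin pair, 3 with TMM and 3 with DESeq2. DESeq2 called 18 block totals between the controls. The causes were not tested.

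With each library left out in turn, called block pairs ranged from 2753 to 6991 against both controls, 1421 to 3589 against the CreT control, 1092 to 4137 against the Erg fl/fl control, and 8 to 116 between the controls. Called chromosome pairs ranged from 11 to 50, 0 to 55, 0 to 25 and 0 to 18 in the same order, with 0 against either control without replicate 1 of the CreT control and 0 against the Erg fl/fl control without replicate 2 of the CreT control. Block totals between the controls ranged from 0 to 93 called. Where a group was left with 1 library, that library was assumed to vary like the others. Depth limits single block pairs most in replicate 2 of the Erg fl/fl control, with a median count of 174. No other call of the block totals changed by over 1.5 times with the replicate block.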
